A study of Mus musculus with 2 samples.

Results

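The members described here are 10 genes of cytokine signalling, namely the kinases Jak1 and Jak3, the transcription factors Stat3, Stat5a, Stat5b and Stat6, and the feedback inhibitors Socs1, Socs2, Socs3 and Cish. They were taken by symbol from the 24346 gene symbols listed in each library, and all 10 were found in both. The libraries hold bulk RNA-seq of Tregs, sorted as GFP+CD4+ cells from Foxp3-DTR-GFP (FDG) mice, a strain in which the endogenous Foxp3 locus drives GFP. One library (spleen Tregs) was made from spleen and the other (lung Tregs) from lung, each from the pooled cells of 3 mice. All of these mice had been given bleomycin (BLM), a drug that injures the lung and leads to fibrosis, into the trachea 15 days before, so there was no untreated group. By the study's protocol for this model, the dose was 50 μg and the mice were 10 to 16 weeks old. Values are FPKM, a read density corrected for exon length and for the size of the library, which the authors calculated with Cuffdiff. With 1 library per tissue there is no measure of the spread between mice, and no p-value is given. The intervals printed below cover the counting of reads only, and they treat PCR copies of a molecule as separate reads.

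JAK kinases are bound to the cytoplasmic tails of cytokine receptors and are activated when a cytokine brings the receptor chains together. They phosphorylate STAT proteins, which then pair up, enter the nucleus and bind DNA. SOCS proteins and CIS, the product of Cish, are themselves encoded by STAT target genes and dampen the signal at the receptor or the kinase. In Tregs, IL-2 acts through JAK1, JAK3 and STAT5 and is needed for the maintenance of Foxp3.

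Reads were estimated from the FPKM and the transcript lengths, since 1 read has a fixed value at a given length. The estimated reads summed to 9865890 in spleen Tregs and 12886500 in lung Tregs over the genes with a known length. The sorted cells contained T cell RNA in both tissues, with Cd4 at 195 FPKM in spleen and at 179 in lung, and Foxp3, the gene that drives the sorted GFP, at 18.7 and 41.8 FPKM. Of 8 Treg markers, 5 were lower in lung and 3 higher, with a median log2 ratio of -0.30, while their summed level was 1460 FPKM in spleen and 2034 in lung. Past 2-fold, Foxp3 and Ctla4 (221 and 601 FPKM) were higher, and Lrrc32, which encodes the surface protein GARP, was 2.28-fold lower (69.4 and 30.4 FPKM). Marker genes of other cells were also detected. Each of 12 macrophage markers had the higher value in lung, 9 of them over 2-fold, and their summed level was 689 FPKM in spleen and 27533 FPKM in lung, with no marker at 0 in either library. Lyz2 alone made up most of both sums (376 and 24947 FPKM). The markers under 2-fold were Adgre1 (14.6 and 24.3 FPKM), Csf1r (43.8 and 50.1) and Mrc1 (7.64 and 9.41). The 5 neutrophil genes listed summed to 424 FPKM in spleen and 1205 in lung, and the 6 B cell genes to 245 and 126. The 6 fibroblast genes summed to 0.290 and 47.2 FPKM, with Col3a1, Pdgfra and Lum at 0 in spleen, and the 5 epithelial genes to 10.5 and 3120, with Sftpc and Sftpb at 0 in spleen. Scgb1a1, a gene of airway club cells, made up most of the latter sum (1.48 and 3021 FPKM), whereas Epcam was lower in lung (8.75 and 1.79 FPKM). The 4 genes of CD8 T and NK cells summed to 31.2 and 92.4 FPKM, with Cd8b1 at 19.9 and 74.8 and Ncr1 at 0 in lung, and the 6 dendritic cell genes to 11.9 and 31.1, with Clec9a at 0 in lung. The part of these cells in the levels of JAK, STAT and SOCS genes, and of the receptors, cytokines and target genes described with them, was not tested, and in bulk samples fewer cells of a type and less RNA per cell cannot be told apart.

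Among the 10 members, 1 gene, Socs3, exceeded its spleen level over 2-fold in lung Tregs, and no member was lower by as much. Of the 12094 genes that reached 1 FPKM in either library, 17.8% were higher and 15.5% lower in lung by over 2-fold. No member was over 20-fold higher, the threshold that the study set for its own list, which 3.27% of the genes passed. With the deposited FPKM, 5 members were higher and 5 lower in lung, and 51.5% of all genes tested were higher. This split depended on the scaling between the libraries. After rescaling to TPM, FPKM shares that sum alike in both libraries, 2 members were higher and 8 lower, beside 32.7% of all genes higher, and with the libraries scaled to T cell markers 7 were higher and 3 lower, beside 60.6%. Their median log2 ratio of lung to spleen was -0.01, beside 0.03 over all genes tested. With the deposited FPKM both kinases were lower in lung, the STAT genes were split, and 3 of the 4 feedback genes were higher.

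**Figure D1:**
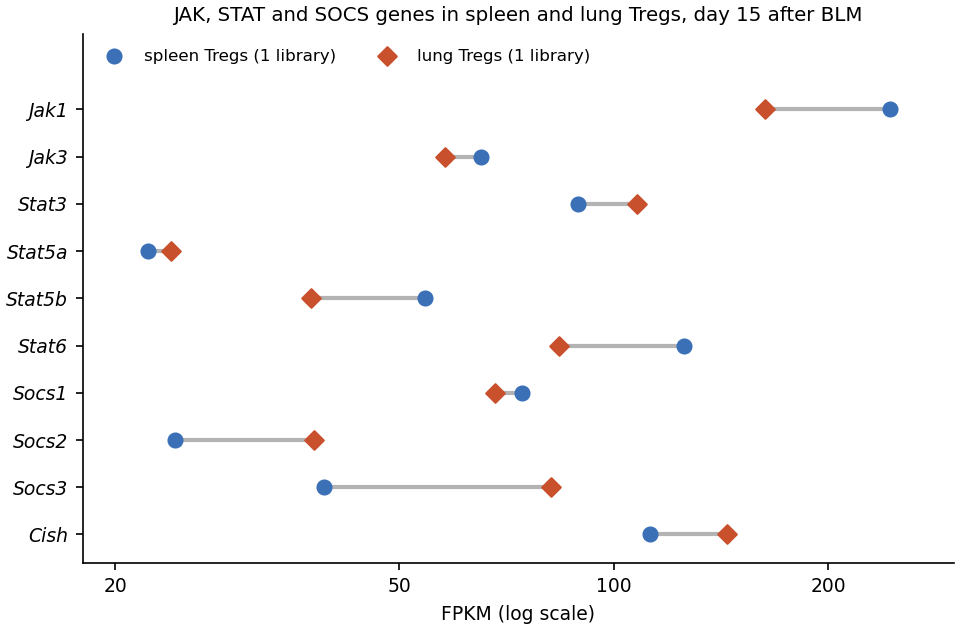
FPKM of the 10 members on a log axis, with circles for spleen Tregs and diamonds for lung Tregs, 1 library each, and a grey bar joining the values of a gene. Socs3 has the longest bar, from 39.2 FPKM in spleen to 81.7 in lung, whereas the values of Stat5a (22.3 and 24.0) and Socs1 (74.4 and 68.2) lie close together.

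Jak1, the kinase shared by the receptors of IL-2, IL-6, IL-10 and the interferons, was at 244 FPKM in spleen Tregs and 163 in lung Tregs, about 11883 and 9003 reads. The level in lung was thus 0.667 times that in spleen (counting interval 0.649 to 0.686). Its log2 ratio of -0.58 lay at percentile 25.4 of all genes tested. Jak3, which is bound to the common gamma chain of the receptors of IL-2, IL-4, IL-7, IL-15 and IL-21, was at 65.2 FPKM in spleen and at 58.0 in lung, 1.12-fold lower (1.06 to 1.19). Jak1 exceeded Jak3 3.74-fold in spleen and 2.81-fold in lung, a comparison within each library that no scaling between libraries can change. The other kinases, Jak2 and Tyk2, were at 37.1 and 15.99 FPKM in spleen and at 22.3 and 9.78 FPKM in lung, so that the order Jak1, Jak3, Jak2, Tyk2 was the same in both libraries. With the libraries scaled to T cell markers, Jak3 was slightly higher in lung (log2 ratio 0.03), and with FPKM rescaled to TPM, Jak1 was just over 2-fold lower (-1.02).

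Jak1 lies on chromosome 4 of GRCm38 (mm10) from 101151974 to 101265282, and Jak3 on chromosome 8 from 71676383 to 71690577. The exons of Jak3 share 404 nt, or 9.05% of their length, with exons of Insl3 on the same strand. Insl3 was listed at 17.8 FPKM in spleen, against 31.9 in lung, and reads from the shared stretch cannot be assigned to either gene by position.

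The STAT members differed in direction. Stat6, which acts downstream of IL-4 and IL-13, was at 126 FPKM in spleen Tregs and 83.8 in lung Tregs, 0.667 times as high (0.638 to 0.697), at percentile 25.4 of all log2 ratios. Stat5b, one of the pair of STAT5 genes that carry IL-2 signals, was at 54.4 FPKM in spleen and at 37.6 in lung, 1.45-fold lower (1.37 to 1.53). Its partner Stat5a was at 22.3 and 24.0 FPKM, and its ratio of 1.08 had a counting interval of 0.981 to 1.18, which includes equality. Stat3, the main factor downstream of IL-6, IL-10, IL-21 and IL-23, was at 89.3 FPKM in spleen and at 108 in lung, 1.21-fold higher (1.16 to 1.26). Stat3 and Stat5a were lower in lung after rescaling to TPM (log2 ratios -0.16 and -0.32), and Stat5a was also lower with equal upper quartiles (-0.07). Stat6 and Stat5b were lower under every scaling tried, and Stat6, like Jak1, was just over 2-fold lower with TPM (-1.02).

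Within the libraries the order of the 4 STAT members changed in 1 place. Stat6 exceeded Stat3 in spleen, where Stat3 was at 0.710 times the level of Stat6, and Stat3 exceeded Stat6 in lung, at 1.29 times. The ratio of Stat3 to Stat5b was 1.64 in spleen and 2.87 in lung, and that of Stat5b to Stat5a was 2.44 and 1.57. Of the summed FPKM of the 4 members, Stat3 made up 30.6% in spleen and 42.6% in lung, Stat6 43.1% and 33.1%, Stat5b 18.6% and 14.8%, and Stat5a 7.63% and 9.46%. Each of these shares compares levels in 1 library and is free of the scaling between them, but has no replicate.

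Stat5b, Stat5a and Stat3 are neighbours on chromosome 11 of GRCm38. Stat5b, on the minus strand, spans 100780731 to 100859004. Stat5a, on the plus strand, spans 100859351 to 100885169 and begins 346 bases from the start of Stat5b. Stat3, on the minus strand, spans 100886806 to 100939594. Stat6 lies on chromosome 10 from 127642955 to 127660987. The transcripts of Stat5a and Stat5b are alike enough to share reads. Of the 75-base stretches of the Stat5a transcripts, 9.76% occur identically in those of Stat5b, and 7.08% of the Stat5b stretches occur in Stat5a, the longest identical run being 324 nt. The FPKM of the pair, and their ratio, are therefore uncertain by whatever rule was used for reads that match both, which the sources used here do not give. By the spans above, Stat5a and Stat3 lie 1636 bases apart. The exon models that were searched for overlaps differ from these spans, and in them Stat3 and Stat5a share 72 nt.

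The feedback genes included the member with the largest difference. Socs3, an inhibitor of JAK activity at gp130 and other STAT3-coupled receptors, was at 39.2 FPKM in spleen Tregs and 81.7 in lung Tregs, about 952 and 2254 reads. Socs3 was 2.08-fold higher in lung (1.93 to 2.25), and its log2 ratio of 1.06 lay at percentile 83.2 of all genes tested. Socs2, best known as an inhibitor of growth hormone signalling and as a target gene of STAT5, was at 24.3 FPKM in spleen and at 38.0 in lung, 1.56-fold higher (1.40 to 1.75). Cish, a target gene of STAT5 whose product CIS restrains IL-2 and T cell receptor signals, was at 113 and 144 FPKM, 1.28-fold higher (1.22 to 1.34). Socs1, an inhibitor of JAK kinases in interferon and gamma chain signalling, was at 74.4 FPKM in spleen and at 68.2 in lung, 1.09-fold lower (1.03 to 1.16).

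Socs3 and Socs2 were higher in lung under every scaling tried, with log2 ratios from 0.63 to 1.26 and from 0.21 to 0.85. Cish was slightly lower in lung after rescaling to TPM (-0.08), and Socs1 slightly higher when scaled to T cell markers (0.08). Socs3 was under 2-fold with TPM and with equal upper quartiles (0.88). Socs3 is also expressed by activated macrophages and neutrophils, whose marker genes were higher in lung as given above, and their part in its level was not tested.

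**Figure D2:**
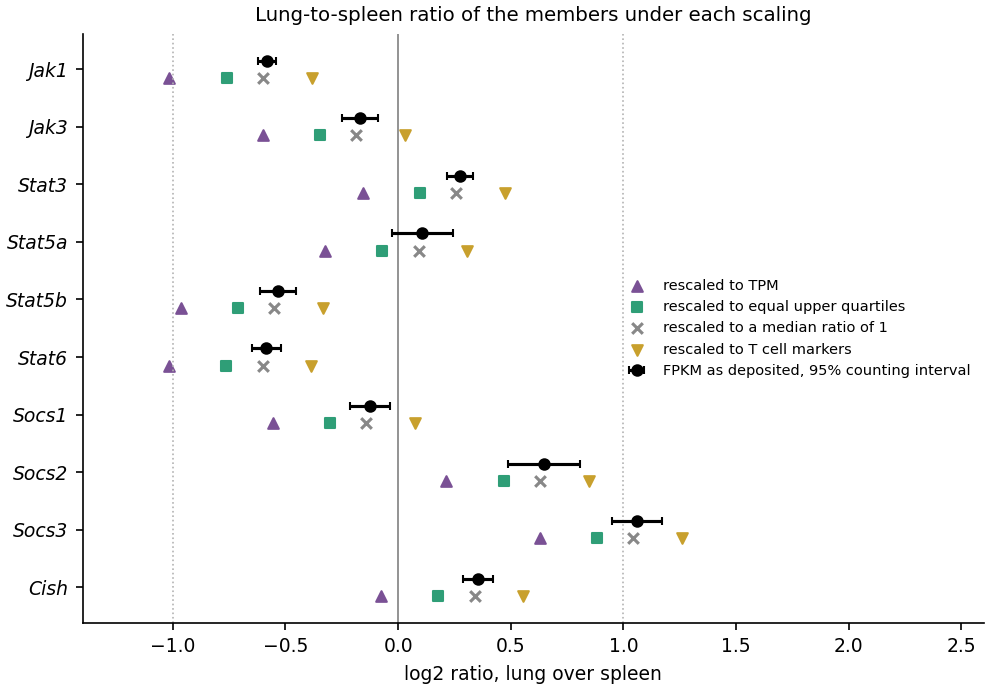
Log2 ratio of lung to spleen for each member, with the deposited FPKM as black points (bars are 95% counting intervals from estimated reads) and the values after each rescaling as coloured marks; dotted lines mark 2-fold. Socs2 and Socs3 stay above 0 and Jak1, Stat5b and Stat6 below 0 under every scaling, whereas the other 5 members change side under at least 1.

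The order of the feedback genes differed between the libraries as well. In spleen Tregs it was Cish, Socs1, Socs3 and Socs2, and in lung Tregs Cish, Socs3, Socs1 and Socs2. Socs3 was at 0.526 times the level of Socs1 in spleen and at 1.20 times in lung. Cish exceeded Socs2 4.64-fold in spleen and 3.79-fold in lung. Among all 8 genes of the family, Cish held 41.4% of the summed FPKM in spleen and 40.8% in lung, Socs1 27.4% and 19.3%, and Socs3 14.4% and 23.1%. The remaining genes Socs4, Socs5, Socs6 and Socs7, whose products have long N-terminal regions, were each at or under 8.03 FPKM in spleen and 12.4 FPKM in lung. The 4 feedback members summed to 250.4 FPKM in spleen and 332 in lung, 1.33-fold higher, while Jak1 and Jak3 together went from 309 to 221 FPKM and the 4 STAT members from 292 to 253. After rescaling to TPM the feedback sum in lung was 0.983 times that in spleen, and when scaled to T cell markers the STAT sum was 0.998 times.

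**Figure D3:**
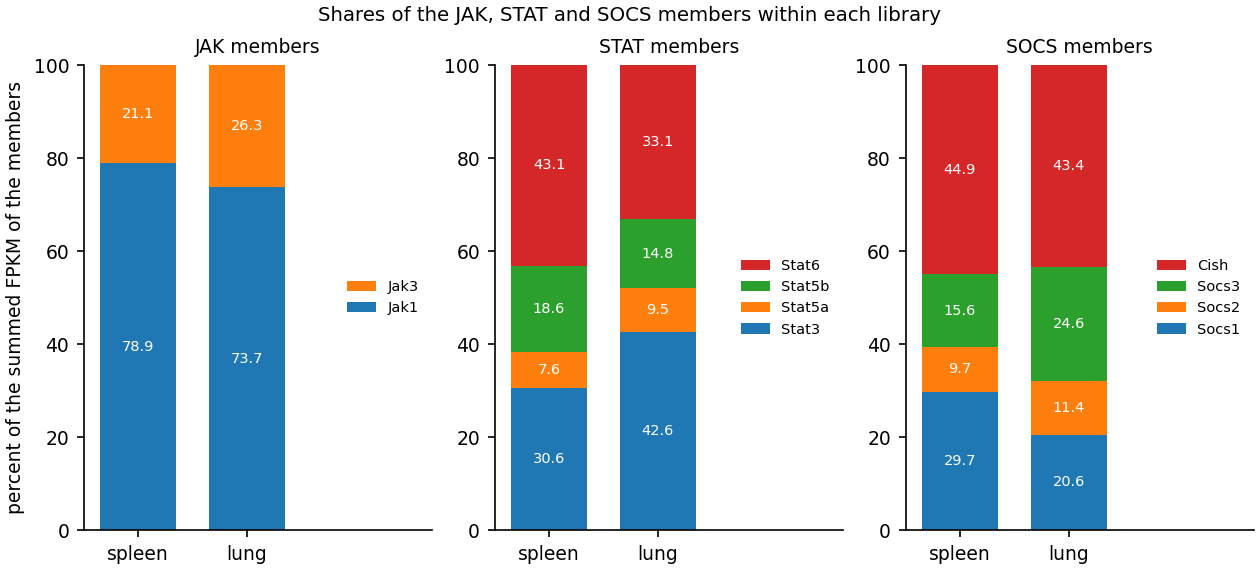
Stacked bars of the share of each gene in the summed FPKM of the JAK, the STAT and the SOCS members, for the spleen and the lung library. The share of Stat3 is 30.6% in spleen and 42.6% in lung and that of Socs3 15.6% and 24.6%, while Cish holds 44.9% and 43.4%.

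STAT dimers bind short palindromes of the form TTCNNNGAA, where N is any base, and STAT6 also binds a longer form with 4 free bases in place of 3. Each form covers both strands, since its reverse complement has the same pattern. They were searched for in RefSeq promoter windows of GRCm38.p6 that run from 250 bases before to 50 bases after each transcript start, which were at hand for 9 of the 10 members, in 11 windows. Socs2 was not matched. The first pattern occurred in the windows of Cish and Socs3 and in no other of the 9 members, and the second in none of them. The stretches of Cish and Socs3 are shown because these were the only members with a match. Whether the pattern bears on their levels was not tested. The stretches run 5′ to 3′ on the strand of the gene, with the pattern in capitals. The Cish stretch lies at chr9:107296654-107296683 on the plus strand, and the Socs3 stretch at chr11:117969501-117969530 on the minus strand.
Cish: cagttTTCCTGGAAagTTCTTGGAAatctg
Socs3: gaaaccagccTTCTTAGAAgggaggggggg
The Cish stretch holds the pattern 2 times with 2 bases between, over the first 20 bases of the RefSeq transcript. The Socs3 match begins at position -154 relative to the start of its window's transcript. That start lies inside the longer RefSeq span of Socs3, and the match lies 816 bases downstream of where this span begins. Of all 32851 promoter windows, 8.30% held TTCNNNGAA at least 1 time and 0.457% held it 2 or more times, and 6.95% held the longer form. Whether any STAT protein was bound at these letters was not measured. Cish spans 107296659 to 107302784 on chromosome 9, Socs3 117966079 to 117970336 on chromosome 11, Socs1 10783808 to 10785536 on chromosome 16 and Socs2 95383903 to 95417321 on chromosome 10. Exons of Gm17041 on the other strand cover 13.1% of the exon length of Cish, and a library without strand information, as SMART-Seq HT gives, cannot separate them.

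All members were well expressed. Over the 12094 genes tested, the level of Jak1 lay at percentile 96.8 in spleen and 93.8 in lung, that of Cish at 92.9 and 93.0, and that of Socs3 at 78.4 and 87.9. The lowest member in both libraries, Stat5a, lay at percentiles 65.9 and 67.6 and rested on about 814 reads in spleen and 996 in lung. At such levels large ratios are less common. Among the 7279 genes that reached 10 FPKM in either library, 11.6% were higher by over 2-fold in lung and 9.15% lower. At 1.5-fold, 2 of the 10 members were higher, Socs3 and Socs2, and none was lower, beside 22.6% and 19.9% of these genes, and 27.4% and 25.4% of all genes tested. The absence of lower members at 1.5-fold is fragile, since Stat6 and Jak1 were 1.49975-fold and 1.499-fold lower. With the libraries rescaled to a median ratio of 1, both were past this limit (log2 ratios -0.601 and -0.600). Socs3, at 2.08-fold, lay just past the 2-fold limit, and the nearest member within it was Socs2, at 1.56-fold.

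**Figure D4:**
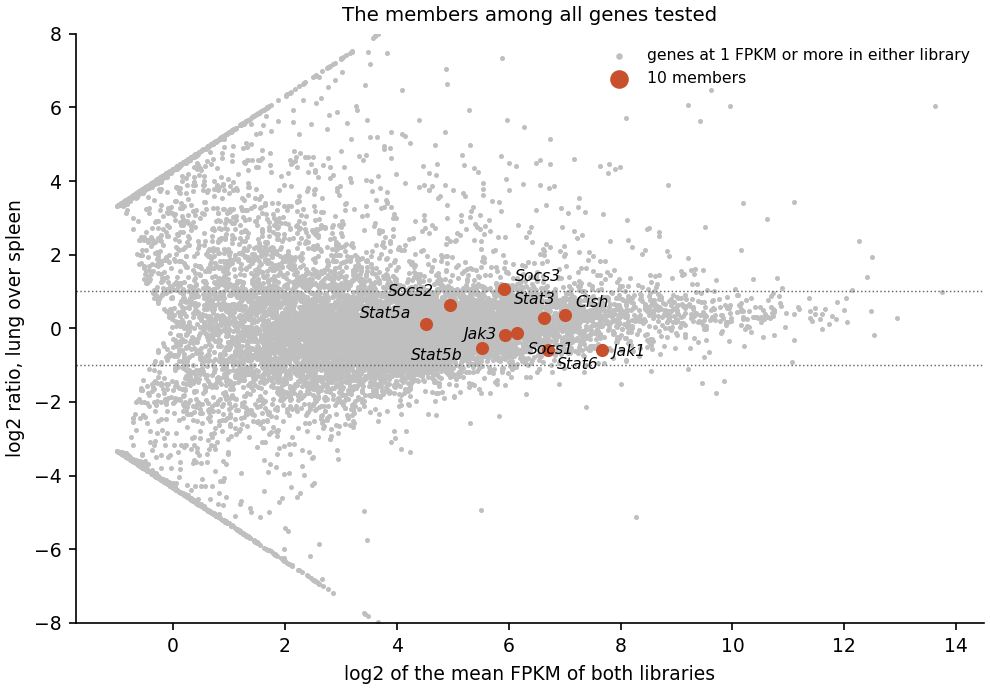
Log2 ratio of lung to spleen against the log2 mean FPKM for all genes that reached 1 FPKM in either library (grey) and the 10 members (red); 90 genes lie beyond the vertical axis, and the straight grey edges are genes at the floor of 0.1 FPKM in 1 library. The members lie at high levels and close to 0, with Socs3 at the upper 2-fold line (log2 ratio 1.06).

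The receptors that feed this pathway were then described list by list. Of 8 receptor genes coupled to the common gamma chain, all were tested and none was past 2-fold in either direction, although 3 of them, Il2ra, Il9r and Il21r, were over 2-fold lower after rescaling to TPM (log2 ratios -1.03, -1.21 and -1.01). Il2rg, the common gamma chain itself, was at 1375 FPKM in spleen, against 1542 in lung. Il2rb, the signalling chain shared by IL-2 and IL-15, was at 300.4 and 249 FPKM. Il2ra, the high-affinity IL-2 receptor chain, was at 89.4 and 59.1 FPKM, 1.51-fold lower in lung, and Il4ra, the chain that recruits STAT6, was at 53.3 and 47.7 FPKM. With the deposited FPKM, the genes of the IL-2 pathway thus had no common direction. After rescaling to TPM, Il2ra, Il2rb, Il2rg, Jak1, Jak3, Stat5a, Stat5b and Cish were all lower in lung, and Socs2 was higher (log2 ratio 0.21). With that scaling 32.7% of all genes tested were higher. Il2ra, Il2rb, Jak1 and Stat5b were lower in lung under every scaling, Il2rb only slightly with T cell markers (log2 ratio -0.07). Il2rg was higher with the deposited FPKM and lower after rescaling to TPM (log2 ratio -0.27). Jak3 and Stat5a also changed side with the scaling, and the STAT5 target genes Cish and Socs2 were higher with the deposited FPKM.

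Of 7 receptor genes of the gp130 and IL-10 families, 2 were over 2-fold higher in lung and 1 was over 2-fold lower. The lower gene was Il6st, which encodes gp130, the signalling chain of the IL-6 receptor, at 42.5 FPKM in spleen and at 18.1 in lung, 2.35-fold lower. The higher genes, Lifr and Osmr, stayed at or under 2.66 FPKM. Of 4 interferon receptor genes, Ifngr1, the ligand-binding chain for IFN-γ, was over 2-fold higher, at 269 FPKM in spleen and at 696 in lung, but it was under 2-fold after rescaling to TPM (0.94). Of 13 cytokine genes, 8 reached 1 FPKM in a library, 4 of them over 2-fold higher and 2 over 2-fold lower in lung. Osm, a gp130 cytokine and a target of STAT5, was at 20.04 FPKM in spleen, against 71.7 in lung. Il6 was at 13.9 FPKM in lung, about 113 reads, and at 0 in spleen, and was at least 33.1-fold higher when 3 reads, the number that a count of 0 allows, were assumed in spleen. Il9 and Il13 were at 0 in both libraries. Osm and Il6 were higher together with the macrophage, neutrophil and fibroblast markers, whose sums are given above, and the part of such cells in these values was not tested.

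Of 9 genes of phosphatases and other inhibitors, none was past 2-fold, and 1, Ptpn2, was over 2-fold lower after rescaling to TPM (-1.08). They include Ptpn6 and Ptpn2, which encode phosphatases that act on JAK and STAT proteins, at 211 and 82.2 FPKM in spleen and at 150.5 and 52.4 in lung. In this list 7 genes were lower and 2 higher, with a median log2 ratio of -0.32.

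The known target genes of the STAT members were compared in the same way. Of 10 genes listed for STAT5, 2 were over 2-fold higher in lung and counted at 10 FPKM or more, namely Osm and Foxp3 (18.7 and 41.8 FPKM), and 1 was over 2-fold lower, Myc, a driver of cell growth, at 80.3 FPKM in spleen and at 38.1 in lung. The other 7 lay between, and the median log2 ratio of the list was -0.24. Scaling to T cell markers brought Myc under 2-fold (-0.88). Rescaling to TPM did the same for Foxp3 (0.73), as did equal upper quartiles. With T cell markers 3 genes of the list were over 2-fold higher and 0 over 2-fold lower. The counts were 1 and 2 with equal upper quartiles, and 1 and 3 with TPM.

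Of 10 genes listed for STAT3, 6 were over 2-fold higher in lung, none was lower by as much, and the median log2 ratio was 1.61. Rora, a nuclear receptor of the Th17 lineage that also occurs in tissue Tregs, was at 5.93 and 26.5 FPKM, 4.48-fold higher. Batf, an AP-1 factor of effector T cells, was at 117 and 244 FPKM. It was under 2-fold after rescaling to TPM (0.62) and with equal upper quartiles. Also over 2-fold higher were Il23r (0.296 and 6.37 FPKM) and the cytokine genes Il17a and Il17f, at 4.59 and 5.17 FPKM in lung and at 0 in spleen. With 3 reads assumed in spleen, Il17a was at least 15.3-fold and Il17f at least 17.3-fold higher, and the median of the list was the same with both at these bounds.

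Of 8 genes listed for STAT6, 5 were over 2-fold higher in lung, with a median log2 ratio of 5.08 over the list. The 5 genes were Arg1, Retnla, Chil3, Ccl17 and Ccl22, which are known from alternatively activated macrophages and dendritic cells. Mrc1, which is on both this list and the macrophage list, was only 1.23-fold higher (7.64 and 9.41 FPKM). It was lower in lung after rescaling to TPM (-0.13). Chil3, also on the macrophage list, was at 17.4 FPKM in spleen and at 1161 in lung, Retnla at 0.495 and 874, and Arg1 at 0.380 and 33.7. The value of Retnla in spleen rested on about 2.01 reads. These 5 genes were higher together with the macrophage markers, which summed to 689 FPKM in spleen and 27533 in lung, most of it from Lyz2. The part of such cells in this list was not tested. Gata3, the STAT6 target that T cells themselves use, was at 69.1 FPKM in spleen, against 77.3 in lung.

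**Figure D5:**
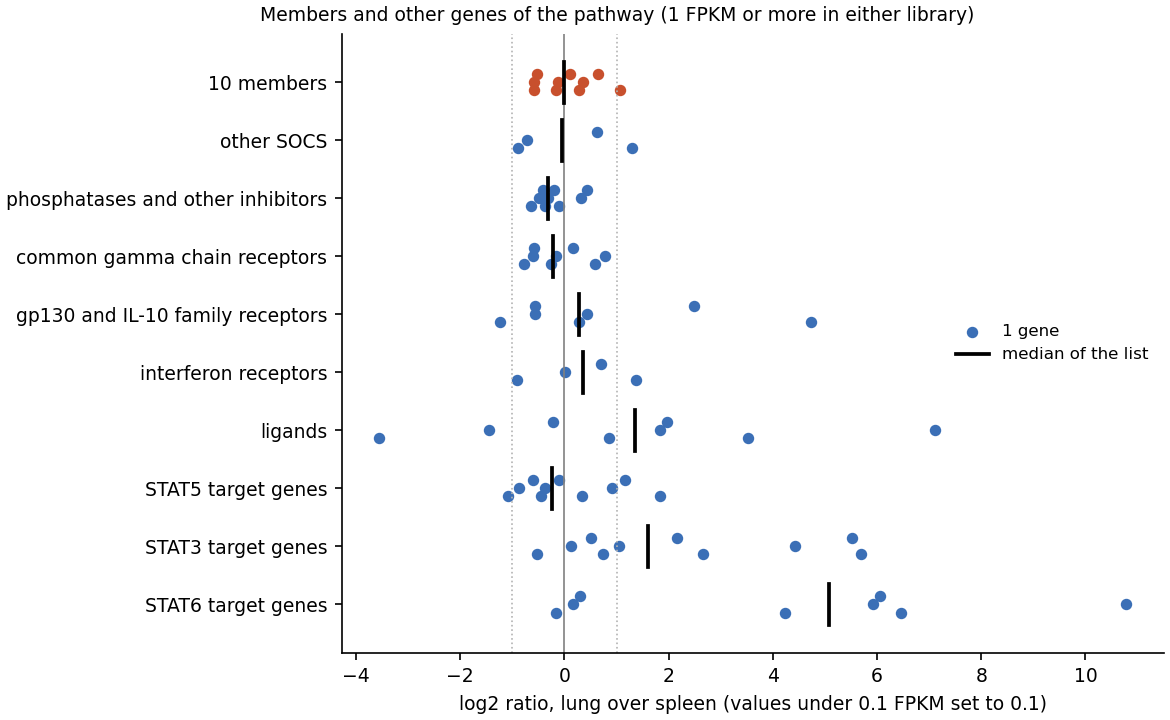
Log2 ratio of lung to spleen for the 10 members (red) and the genes of 9 pathway lists (blue, 1 point per gene at 1 FPKM or more in either library), with the median of each list as a black bar and dotted lines at 2-fold. The members, the phosphatases and the gamma chain receptors lie close to 0, whereas the STAT6 list splits into genes near 0 and 5 genes far above it.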

How the data were processed

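The authors mapped 75-base single-end reads of SMART-Seq HT libraries to mm10. Their mapping tools were SAMtools 0.1.18, Bowtie2 2.2.8 and TopHat 2.1.1, per the labels, and the deposited FPKM were calculated by the authors with Cuffdiff 2.2.1. The annotation, the scaling between libraries and the handling of reads with several matches are not given in the sources used here.

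FPKM under 0.1 were set to 0.1, and the log2 ratio of lung to spleen was computed for genes that reached 1 FPKM in either library. Reads were estimated from GENCODE M21 transcript lengths, found for 23677 symbols (97.3%), with a fragment length of mean 200 and SD 80. Where a gene had several transcript lengths, as Stat3 (2927 to 6042 nt) and Socs2 (948 to 2222 nt), their median was used. Among genes with only 1 transcript length and 1 to 10 reads, 72.6% (spleen) and 74.6% (lung) fell within 0.1 of a whole number. The value of 1 read and the shortest fragment were set from such genes, so this share does not check the reads of genes with several lengths. At an effective length of 1 kb, 1 read was worth 0.0965 FPKM in spleen and 0.0850 in lung. Intervals of ratios are exact conditional binomial intervals (95%) from these reads.

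The members and lists were chosen with earlier results of these data known. Genes named from the lists were over 2-fold and at 10 FPKM or more, up to 3 per list, besides 4 receptors, Foxp3 and Cd4. Any further gene was named after its values had been seen. Rescalings, floors, pseudocounts and folds were varied. Proteins were not compared here. Some genes of the lists are not reported here. The steps were tested on simulated data. The tools were scipy 1.17.1, pandas 2.3.3, numpy 2.4.6, Python 3.11.15 and matplotlib 3.10.9.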

Additional observations from a re-analysis of the deposited data

How the results depend on the processing

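Rescaling moved all log2 ratios of genes above the floor alike, by -0.43 for TPM, -0.18 for equal upper quartiles, -0.02 for a median ratio of 1 and 0.20 for T cell markers. The median log2 ratio of the members became -0.44, -0.19 and 0.19 with TPM, upper quartiles and T cell markers. The number of members over 2-fold higher in lung was 0 with TPM, with upper quartiles and at 3-fold, and 2 at 1.5-fold, and the number over 2-fold lower was 2 with TPM, where 25.9% of all genes tested were over 2-fold lower and 13.1% higher. Floors and pseudocounts changed neither count. The share of all genes over 2-fold higher was 11.0% with no filter and 11.65% at 10 FPKM or more, and the share lower was 9.15% at 10 FPKM or more. Of 80 alternative values of single members, 50 lay inside the counting interval. These were the values with other floors, pseudocounts or a median ratio of 1, settings that hardly move genes at such levels. The other 30 were all those with TPM, equal upper quartiles or T cell markers, each of which took every member outside its counting interval. In all 8 settings of floor, pseudocount and scaling, 5 of the 10 members kept their direction. No replicate could be left out, and no paired analysis was possible because each tissue has 1 library.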
